A study of Mus musculus with 4 samples.

Results

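Arrays of embryonic stem (ES) cells and of cells sorted for an HB9 reporter, which both carried a pluripotency profile, were set against arrays of Sox1 neural stem cells and of cerebellar granule cells. All 4 arrays of the series entered, with 2 on each side. The sides were themselves chosen from the measured profiles, so every difference between them given here is a description of these 4 arrays and was not tested. Each kind of cell had 1 array, so there was no replicate check of any value, and no p-value or error is given.

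The study measured RNA of mouse cells on Affymetrix oligonucleotide arrays. By the labels, the ES cells carried an HB9 reporter that makes green fluorescent protein (GFP), HB9 being the motor neuron homeodomain factor encoded by Mnx1. They were kept on mitomycin C-treated embryonic fibroblasts with leukemia inhibitory factor. Also by the labels, cells of the same line were differentiated with retinoic acid at 0.1 uM, purmorphamine at 0.2 uM and Sonic hedgehog. These were then sorted for the reporter. The labels place the factors from day 5 to day 9 but the sort on day 8, and these days conflict. Granule cells came from cerebellum of postnatal day 6, and how the Sox1 cells were obtained, the number of animals or cultures, and the purity of each preparation are not given in the sources used here. The labels repeat the same growth text for every sample, so no treatment is assigned here to the Sox1 or granule cells.

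Mouse ES cells are held in a self-renewing state by a network of transcription factors around Pou5f1 (Oct4), Sox2 and Nanog, supported by factors such as Klf4, Esrrb and Tbx3. When cells enter the neural lineage Pou5f1 and Nanog are shut down while Sox2 is kept, Sox-family and proneural factors take over, and the adhesion molecule E-cadherin gives way to N-cadherin. Granule cells are small excitatory neurons whose precursors still divide in the outer layer of the cerebellum after birth, so a preparation of that age can hold both dividing precursors and young neurons.

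Probe sets with a single symbol were reduced to 1 per gene, the brightest by mean log2 signal, which gave 18193 genes. Signal means the deposited linear intensity. Averaging the arrays' median log2 signals gave a low level at a signal of 78.8, to which lower values were raised before differences were taken. Detection required a signal of 158, which is 1 log2 unit higher, and 11571 genes were detected on at least 1 array. Of the 4 differences between an array of one side and an array of the other, the smallest was used, with a positive sign where the ES and HB9-labelled arrays were higher and 0 where the sides overlapped. A gene was set apart when this smallest difference reached 2 log2 units, that is 4-fold, with both arrays of the brighter side detected. The ES and HB9-labelled arrays are called the ES side and the Sox1 and granule arrays the neural side. In what follows, the 4 signals of a gene are given in the order ES and HB9-labelled against Sox1 and granule. Where both dim arrays were below the low level the fold is a bound against that level and is written "at least", and where a dim array lay between the low and the detection level no fold is given.

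The array labelled HB9-GFP+ ran against its label. Mnx1, the gene of the reporter, had signals of 5.8 on the ES array, 15.9 on the HB9-labelled array, 13.7 on the Sox1 and 6.3 on the granule array, below the low level on every array. Since no array was bright for it, these values do not show whether its probe set can detect Mnx1 RNA. Of 21 motor neuron genes measured, 3 were detected on the ES array, 5 on the HB9-labelled array, 7 on the Sox1 and 8 on the granule array, with summed signals of 8439.8, 11436, 6792 and 17644. The 5 were Olig1, Olig2, Foxp1, Aldh1a2 and Stmn2, of which Olig1, at 61.9 and 619.7 against 50.3 and 3541, and Olig2, at 0.9 and 321 against 78.2 and 896, were not detected on the ES array. Isl1, Lhx3 and Chat, which mark motor neurons more closely, had signals of 85.2, 7.5 and 17.6 on the HB9-labelled array. Pou5f1, the Oct4 gene, had signals of 9256 on the ES array, 11188 on the HB9-labelled array, 514 on the Sox1 and 21.7 on the granule array. Nanog, its partner in the pluripotency network, had signals of 4686 and 7701 against 324 and 4.4. Both genes were as bright on the HB9-labelled array as on the ES array or brighter. Sox1 had signals of 194 and 176 against 2262 and 438, highest on the array labelled for it, and also above the detection level on the other 3. The array is therefore called HB9-labelled throughout. The total counts and those of the pluripotency, early embryo, epithelial and fibroblast lists are also given without it.

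The arrays had a common trimmed mean of 500 and median signals of 61.9 to 90.7, with 9330 to 9518 genes detected on each. For actin the signal of the 3' probe set over that of the 5' one ranged from 2.29 (granule) to 5.08 (Sox1), and for Gapdh from 1.37 (HB9-labelled) to 3.68 (Sox1). The reference gene Hprt had signals of 90.3 and 8529 against 93 and 3349, so its 2 dim arrays lay on opposite sides and it was left out where reference genes were used. Its ES minus HB9-labelled difference was -6.56 log2 units. The labels describe these cells as the same line, and whether they were was not tested. In bulk RNA, fewer cells of a type and less RNA per cell cannot be told apart.

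In all, 242 genes (1.33% of those measured) were set apart as higher on the ES and HB9-labelled arrays, and 285 genes (1.57%) as higher on the Sox1 and granule arrays. At any size, the sides did not overlap for 3579 genes (19.7%) with the ES and HB9-labelled arrays higher and for 3068 (16.9%) with the neural arrays higher, and the median smallest difference over all genes was 0. Since the sides were chosen from these profiles, nothing is read from these shares. The other pairings of the arrays by the same rule gave few genes. With ES and Sox1 set against HB9-labelled and granule they were 2 (0.011%) and 16 (0.0879%), and with ES and granule set against HB9-labelled and Sox1 they were 4 (0.022%) and 1 (0.0055%). Without the HB9-labelled array, with the ES array alone on its side, the counts were 431 and 402. These included all 242 and all 285 genes, which is a property of the rule because 2 of the 4 differences are then dropped.

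Among the 242 genes the smallest difference had a median of 2.73 log2 units and quartiles of 2.28 and 3.43, and 97, 39 and 10 genes reached 3, 4 and 5 log2 units. Among the 285 genes the median size was 2.56 log2 units with quartiles of 2.22 and 3.25, and 89, 34 and 9 genes reached those sizes. The genes just inside the limit were Myl4 at 2.00, Bcat2 and Plaat3 at 2.01 on the ES side and Ntrk3, Ebf2 and Boc at a size of 2.00 on the neural side. Just outside lay Nfe2l2, Slco4a1 and Ier3 at 1.99 and Fgf13, Slc25a53 and Cdk6 at -1.99. The limit thus cuts through a continuous range of differences.

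Of the 12 leading genes of the ES side, 5 stood in a gene list described below. Those lists held 759 of the 18193 genes and were written with earlier results of these arrays known, so this count supports nothing further. Tdgf1, the Cripto co-receptor for Nodal, had signals of 17646 on the ES array, 18716 on the HB9-labelled array, 262 on the Sox1 and 25 on the granule array, which was at its smallest a 67.5-fold difference. Dppa2, a developmental pluripotency factor, had signals of 9677 and 14058 against 258 and 5.3, at its smallest 37.6-fold. Mymx, which encodes the muscle fusion peptide myomixer, had signals of 8602 and 8226 against 174 and 132, 47.2-fold at its smallest. On these genes the ES and HB9-labelled arrays stood close together and far above both neural arrays. Fbxo15, an F-box gene used as an ES reporter locus, had signals of 6858 and 7172 against 105 and 4.4, Dnmt3l, the cofactor of the de novo DNA methyltransferases, 5823 and 5412 against 107 and 17.5, and Ooep, a maternal factor of the egg's subcortical complex, 6502 and 6817 against 138 and 118. Morc1, a germline silencing factor, had signals of 4305 and 4251 against 88.6 and 19.8, and AU018091, which the annotation leaves without a name, 3992 and 6784 against 94 and 14.5. For these 5 genes a dim array lay between the low and the detection level, so no fold is given.

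The other 4 leading genes of the ES side were below the low level on both neural arrays. Calcoco2, an autophagy receptor, had signals of 2856 and 4226 against 39.3 and 14 (at least 36.3-fold), and Zfp296, a zinc finger gene of ES cells, 2592 and 2736 against 59.7 and 28.1 (at least 32.9-fold). Usp17la, a deubiquitinase gene of a multicopy family, had signals of 2814 and 2512 against 50.2 and 21.5 (at least 31.9-fold), and its near-identical copies may share this probe set. Aqp3, a water and glycerol channel, had signals of 2536 and 2375 against 53 and 45.7 (at least 30.2-fold).

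Of the 12 leading genes of the neural side, 9 stood in a gene list described below, with the same limit on how the lists were written. Fabp7, a fatty acid binding protein that marks radial glia, had signals of 43.7 on the ES array, 47.9 on the HB9-labelled array, 21466 on the Sox1 and 17695 on the granule array, a difference of at least 225-fold at its smallest. Zic1, a zinc finger factor of the dorsal neural tube and of granule cell precursors, had signals of 70 and 44.3 against 8468 and 17614, at least 108-fold. Ednrb, the endothelin B receptor, had signals of 35.7 and 4.4 against 4378 and 6043, at least 55.6-fold. For these 3 genes neither the ES nor the HB9-labelled array rose above the low level. Ptn, the growth factor pleiotrophin, had signals of 46.5 and 321 against 15732 and 17905, a measured 49-fold, and Nr2f1, a nuclear receptor of forebrain and hindbrain patterning, 21.5 and 198 against 12007 and 8072, 40.8-fold. Tox3 had signals of 77.9 and 226 against 11221 and 7510.3, 33.2-fold, and Cdh2, which encodes N-cadherin, 68.5 and 169 against 9286 and 5406, 32-fold. In these 4 genes the HB9-labelled array was the brighter of the dim arrays and was the one detected.

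Zfp521, a zinc finger factor of neural progenitors, had signals of 58 and 53.4 against 3239 and 9277 (at least 41.1-fold), and Insm1, a zinc finger factor of newly formed neurons, 16.9 and 26.6 against 3089 and 10844 (at least 39.2-fold). Itgb8, an integrin beta subunit, had signals of 13.6 and 35.7 against 5013 and 2913 (at least 37-fold), and Irs1, an adaptor of the insulin receptor, 59.9 and 67.8 against 2342 and 3422 (at least 29.7-fold). Gpm6b, a membrane proteolipid of neural cells, had signals of 104 and 46.6 against 3192 and 13272, with the ES array between the low and the detection level. Among these 5 genes the granule array was the brighter neural array in all but Itgb8.

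**Figure D1:**
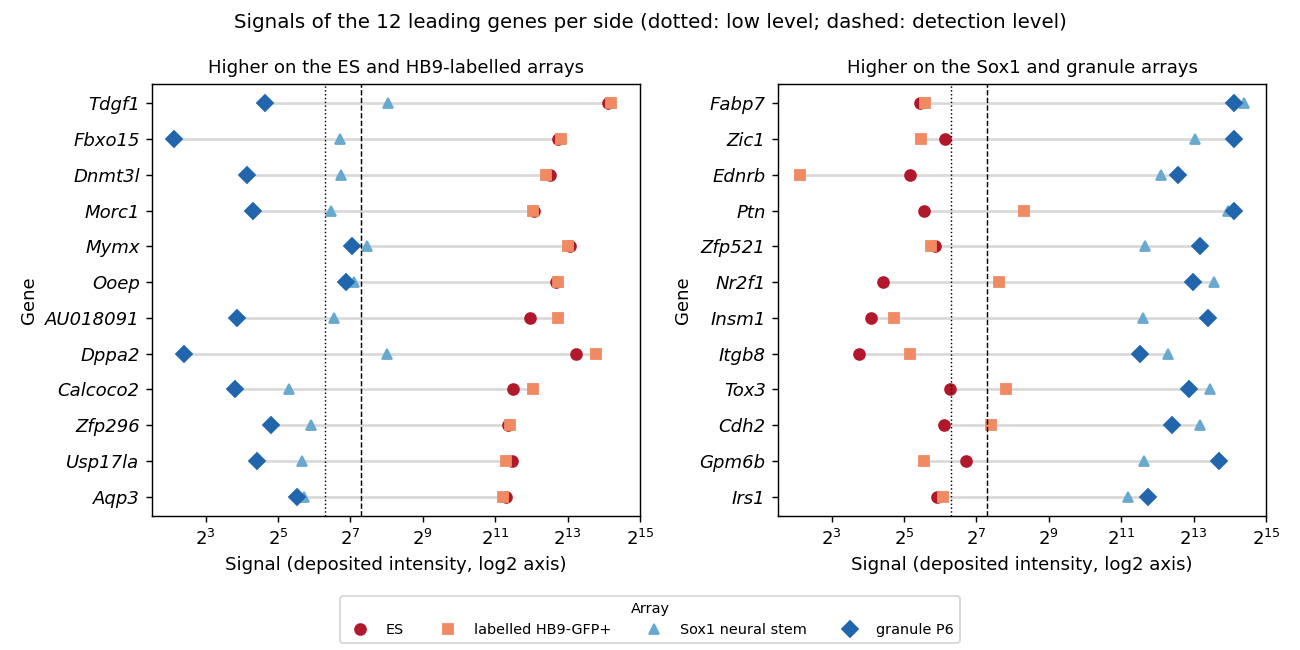
Signals of the 12 leading genes of each side on the 4 arrays, with the deposited intensity on a log2 axis, the low level dotted and the detection level dashed. The ES and HB9-labelled arrays lie together at the right in the left panel, from 2375 for Aqp3 on the HB9-labelled array upwards, and the neural arrays at the right in the right panel, from 2342 for Irs1 on the Sox1 array upwards.

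Promoter sequences are shown for 3 leading genes of each side, to make visible a sequence feature that the rule did not use, the number of CpG dinucleotides near the start site. Each stretch is the 200 bases before the gene's start from RefSeq on GRCm38.p6, read 5′ to 3′ on the gene's strand, with each CpG in capitals.
Tdgf1 (chr9:110946159-110946358, minus strand): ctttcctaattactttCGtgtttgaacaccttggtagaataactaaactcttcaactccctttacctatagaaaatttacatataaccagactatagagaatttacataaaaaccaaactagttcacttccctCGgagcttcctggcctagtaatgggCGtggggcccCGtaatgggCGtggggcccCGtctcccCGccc
Dnmt3l (chr10:78042087-78042286, plus strand): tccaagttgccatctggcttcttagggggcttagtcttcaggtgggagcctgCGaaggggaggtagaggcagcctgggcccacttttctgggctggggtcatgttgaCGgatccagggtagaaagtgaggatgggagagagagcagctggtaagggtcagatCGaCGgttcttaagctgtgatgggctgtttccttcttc
Ooep (chr9:78378589-78378788, minus strand): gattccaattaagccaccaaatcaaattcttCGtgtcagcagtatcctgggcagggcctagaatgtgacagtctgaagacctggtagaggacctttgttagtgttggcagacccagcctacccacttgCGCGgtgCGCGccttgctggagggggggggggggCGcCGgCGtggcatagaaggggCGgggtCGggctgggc
Fabp7 (chr10:57784723-57784922, plus strand): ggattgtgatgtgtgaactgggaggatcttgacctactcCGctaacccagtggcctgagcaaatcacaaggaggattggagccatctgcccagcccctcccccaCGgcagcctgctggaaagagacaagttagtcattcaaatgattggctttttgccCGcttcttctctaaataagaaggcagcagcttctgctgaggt
Zic1 (chr9:91365769-91365968, minus strand): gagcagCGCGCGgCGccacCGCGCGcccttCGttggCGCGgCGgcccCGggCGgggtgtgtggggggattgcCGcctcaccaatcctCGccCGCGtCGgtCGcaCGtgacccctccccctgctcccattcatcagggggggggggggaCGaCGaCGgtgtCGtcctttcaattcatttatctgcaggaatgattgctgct
Ednrb (chr14:103843702-103843901, minus strand): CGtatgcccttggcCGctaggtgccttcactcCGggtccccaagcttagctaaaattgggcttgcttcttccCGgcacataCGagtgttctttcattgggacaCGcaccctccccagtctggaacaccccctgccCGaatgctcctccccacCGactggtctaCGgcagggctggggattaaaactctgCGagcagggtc
The stretch of Tdgf1 held 7 CpG, that of Dnmt3l 4 and that of Ooep 10. On the neural side Fabp7 held 3, Zic1 24 and Ednrb 10, so the leading genes of either side included sparse and denser promoters.

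Promoters of 300 bases, 250 before and 50 after the start, were found in RefSeq for 185 of the 242 and 220 of the 285 genes, for 9354 of the 11571 detected genes and for 14368 of all genes. The median number of CpG was 13 in promoters of the ES side, 19 in those of the neural side, 21 over detected genes and 17 over all genes. Fewer than 6 CpG were held by 21.6% of promoters of the ES side, 12.3% of the neural side, 7.93% of detected genes and 22% of all genes. By this share the ES side was close to all genes and above the detected genes. The median ratio of observed to expected CpG was 0.56 on the ES side, 0.70 on the neural side, 0.78 over detected genes and 0.67 over all genes, and the median GC content was 58%, 62.3%, 61.3% and 58.7%. No test was made of these shares.

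**Figure D2:**
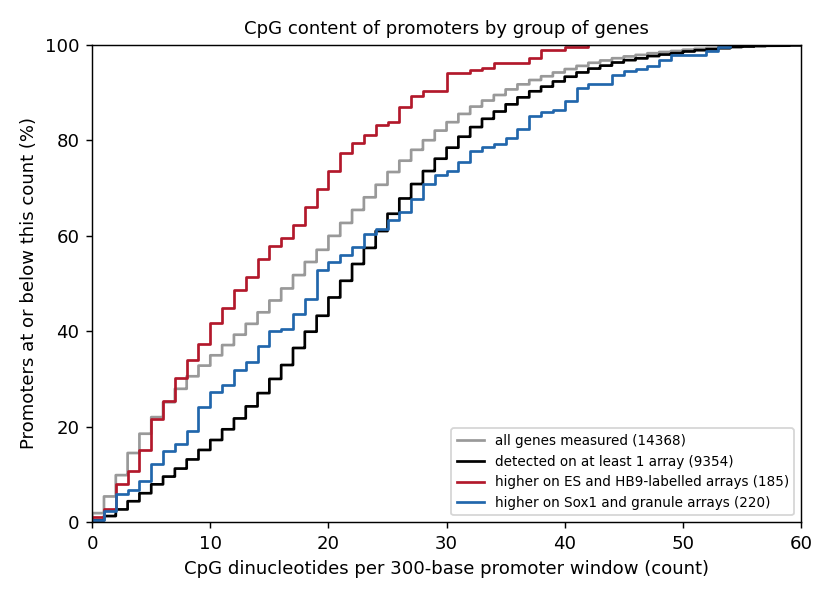
Cumulative share of promoters (percent, vertical axis) at or below each number of CpG dinucleotides in the 300-base window (horizontal axis), for the genes set apart on either side, the genes detected on at least 1 array and all genes. The curve of the ES side crosses the middle at a median of 13, that of the neural side at 19, that of detected genes at 21 and that of all genes at 17.

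The octamer motif ATGCAAAT, the site read by POU factors such as Oct4, is shown in 3 promoters of the ES side as examples, in 40-base windows of the gene's strand from RefSeq on GRCm38.p6 with the octamer, or its reverse complement ATTTGCAT, in capitals.
Zfp42 (chr8:43307172-43307211, minus strand): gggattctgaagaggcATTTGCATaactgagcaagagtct
Zfp296 (chr7:19577160-19577199, plus strand): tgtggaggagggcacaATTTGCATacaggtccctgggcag
Mageb16 (chrX:79671598-79671637, minus strand): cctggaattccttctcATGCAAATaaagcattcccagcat
Searched on both strands, the octamer stood in 6 promoters of the ES side (3.24%), 5 of the neural side (2.27%), 1.39% of those of detected genes and 1.49% of all. The 6 genes were Chchd10, Itpr3, Liph, Mageb16, Zfp296 and Zfp42, and those of the neural side were Gpm6a, Il18, Pcdh8, Sh3bgrl and Stox2. The other motifs are given as shares of the ES side, the neural side, detected genes and all genes, in that order. The GT box GGGTGGGG, bound by KLF factors, stood in 18.9%, 10.5%, 12.6% and 12.5%. The ETS site CCGGAAGT stood in 1.62%, 1.82%, 8.37% and 6.17%, so both sides were below either background. The cyclic AMP response element TGACGTCA stood in 0%, 3.18%, 3.31% and 2.69%. The E-box CAGCTG, bound by proneural factors, stood in 18.4%, 18.6%, 14.6% and 16.1%, and the E-box CATCTG in 14.1%, 11.8%, 10.9% and 13.5%. The TATA box TATAAA stood in 11.4%, 8.18%, 6.83% and 9.86%, and the Sox core CATTGT in 7.03%, 9.09%, 6.95% and 9.25%. The CCAAT box CCAAT stood in 37.3%, 35%, 38.8% and 38.2%, and the GC box GGGCGG in 58.4%, 60.5%, 66.1% and 54.1%. A match is only an occurrence of these letters.

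Of 26 pluripotency transcription factors measured, 13 were set apart on the ES side and 0 on the neural side, with a median smallest difference of 2.30 log2 units against 0 over all genes. This list and those below were written with earlier results of these arrays known, so their counts describe the arrays and support nothing further. Each list count stands beside 1.33% of all genes on the ES side and 1.57% on the neural side. Tbx3, a T-box factor, had signals of 2241 and 2873 against 63.8 and 61.6 (at least 28.5-fold), and Tfcp2l1, a factor of the naive state, 2019 and 2174 against 44.3 and 5.1 (at least 25.6-fold). Klf5, a Krüppel-like factor, had signals of 7405 and 8141 against 304 and 119.7 (24.4-fold), and Zfp42 (Rex1), a marker of naive ES cells, 15912 and 13094 against 593 and 12 (22.1-fold). Esrrb, an orphan nuclear receptor, had signals of 3409.8 and 4352 against 140.5 and 38.3, with the Sox1 array under the detection level. Pou5f1, with the signals given above, differed by 18-fold at its smallest, and Nanog by 14.4-fold. Among the factors named so far in this list, 5 had a neural array above the low level, and in these the Sox1 array was the brighter neural array. Tbx3 and Tfcp2l1 were below the low level on both neural arrays. This order did not hold for all 13 factors. Klf4 was brighter on the granule array, and Klf2 was nearly level, at 1832 and 4250 against 166 and 160.

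Klf4, one of the reprogramming factors, had signals of 10449.7 and 10034 against 1399 and 1579 (6.35-fold), so both neural arrays kept a clearly detected signal. Prdm14, a repressor of differentiation, had signals of 913 and 1497 against 63.6 and 4.9 (at least 11.6-fold). The 13 factors that were not set apart included Sox2, which is shared by ES and neural stem cells, at 18877 and 16038 against 16173 and 3410.1, with overlapping sides. Sall4 was at 6565 and 10114 against 6335 and 19.5 and Gbx2 at 458 and 1451 against 1424 and 71.4, so the Sox1 array was as bright as the ES side or nearly so and the granule array alone was low. Utf1, at 510.5 and 1802 against 135 and 56.7, fell just under the limit at 1.92. Mycn was the only factor of the list with both neural arrays higher, at 1681 and 3209 against 5910.3 and 4072, a difference of 0.34 log2 units. Without the HB9-labelled array the count of the list was 14 in place of 13.

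Of 28 early embryo and ES markers, 16 were set apart on the ES side and 0 on the neural side, with a median of 2.11 log2 units. They included Tdgf1, Fbxo15, Ooep and Dppa2, given above, and L1td1, an RNA-binding protein of transposon origin, at 8085 and 6776 against 287 and 46.6 (23.6-fold). Dppa5a, an RNA-binding ES marker, was at 31169.8 and 27367 against 3928 and 79.1 (6.97-fold), still bright on the Sox1 array. Lin28a and Trim71, which act on let-7 microRNAs and their targets, were at 2006 and 4245 against 6056 and 6.2 and at 2321 and 3527 against 3190.2 and 12.2, so for these 2 genes the Sox1 array resembled the ES side and the granule array was low. The count without the HB9-labelled array was again 16.

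Of 24 germline genes, 6 were set apart on the ES side and 0 on the neural side, with a median of 0.91. Stra8, a regulator of meiotic entry, had signals of 7962 and 1731 against 90.3 and 20.4, and Rhox5, a homeobox gene of the X chromosome, 2118 and 11563 against 456 and 5.9 (4.65-fold). Mael and Dazl, which act in piRNA silencing and in germ cell translation, had signals of 805 and 2674 against 46.1 and 5.9 (at least 10.2-fold) and 681 and 2446 against 50.6 and 8.1 (at least 8.65-fold). Hormad1, a protein of meiotic chromosome axes, was at 529.9 and 923 against 9.6 and 1.8 (at least 6.73-fold), and Rnf17, a tudor protein, at 442 and 1652 against 68.5 and 16.9 (at least 5.62-fold). All but Stra8 were higher on the HB9-labelled array than on the ES array. Another detected probe set of Rnf17 had overlapping sides. Of the 24 genes, 13 were detected on the ES array, 18 on the HB9-labelled array, 3 on Sox1 and 2 on granule.

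Of 26 genes of Nodal, BMP, FGF and LIF signalling, 3 were set apart on the ES side and 1 on the neural side, the only list with genes on both sides. These were 11.5% and 3.85% of the list, beside 1.33% and 1.57% of all genes. The ligands Fgf4, Lefty2 and Nodal were the 3, at 2869.7 and 2681 against 123 and 0.8, at 2487 and 2789.6 against 221 and 12.5 (11.3-fold) and at 2912 and 4102 against 469 and 60.3 (6.21-fold). Id2, an inhibitor of basic helix-loop-helix factors, was at 621 and 496 against 13193 and 10589.7 (17.1-fold) and ran the other way. Its relative Id3 was at 30.8 and 661 against 774 and 454, low on the ES array alone. The receptor Lifr and the signal transducer Stat3 were not set apart, at 6517 and 1469.6 against 516 and 884 and 1164 and 1189 against 194 and 1221. The list's median was 0, and for Nodal and Fgf4 another detected probe set differed by only 0.60 and 0.40 log2 units in the same direction.

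Of 25 epithelial genes, 5 were set apart on the ES side and 0 on the neural side, with a median of 1.20. Cdh1, which encodes E-cadherin, was at 9123 and 11669 against 895 and 25 (10.2-fold), and Epcam, an epithelial adhesion molecule, at 4561 and 6312 against 428 and 157 (10.6-fold). Dsg2, a desmosomal cadherin, was at 3610.1 and 4416 against 282 and 42.9 (12.8-fold), with another detected probe set whose sides overlapped. Spint2, a protease inhibitor, was at 8131 and 9976 against 1316 and 305 (6.18-fold), and St14, the protease matriptase, at 484 and 695 against 55.4 and 14.5 (at least 6.15-fold). The keratins Krt8 and Krt18 were not set apart, at 536 and 373 against 501 and 68.1 and 572 and 311 against 337 and 10.8. Of the 25 genes, 20, 22, 11 and 1 were detected on the ES, HB9-labelled, Sox1 and granule arrays. Without the HB9-labelled array 8 genes of this list were set apart.

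The 2 metabolic lists had 2 and 1 genes set apart, 11.8% and 5.88% of their members, beside 1.33% of all genes on the ES side. Of 17 genes of one-carbon, serine and threonine metabolism, the 2 on the ES side were Asns, asparagine synthetase, at 9719.6 and 11486 against 1803 and 1349 (5.39-fold), and Trib3, a stress-induced pseudokinase, at 363 and 978 against 82.7 and 58.2. Of 17 genes of glycolysis and glucose transport, the 1 on the ES side was Pfkp, the platelet form of phosphofructokinase, at 7413 and 10086 against 168 and 440.4 (16.8-fold), and its other detected probe set differed by 0.13 log2 units. The medians were 0.32 and 0.59, so the glycolysis list lay higher on the ES side by a small difference in most of its members. Of its 17 genes, 13 were higher on the ES side at any size, beside 19.7% of all genes. That 19.7% includes genes detected on no array, while 16 of the 17 were detected on each array. Among 11 reference genes, 5 were likewise higher on the ES side and 0 on the neural side. Centring on reference genes without Hprt shifted the granule array by 0.52 log2 units, near the list's median. Nothing particular to glycolysis is therefore read from this share.

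In the list of DNA methylation and Polycomb genes, 1 of 24 was set apart, Dnmt3l on the ES side. Dnmt3b, a de novo methyltransferase, was at 6362 and 8859.6 against 5123 and 363, and Tet1, which oxidises methylcytosine, at 4817 and 3627 against 897 and 1279.9, 1.50 log2 units at its smallest. Of 20 BAF chromatin remodelling subunits, only Smarce1 was set apart, on the neural side, at 714 and 736 against 4239 and 3874 (5.26-fold), and another detected probe set of it had overlapping sides. None of 26 replication and mitosis genes was set apart and their median was 0.03, with Pcna, the replication clamp, at 25028 and 22799.8 against 23902 and 14267. Of 15 cyclin D and CDK inhibitor genes, Ccnd2 was set apart on the neural side, at 108 and 769 against 11250.1 and 14613 (14.6-fold), with the HB9-labelled array above the ES array. At least 25 of the 26 replication and mitosis genes were detected on each of the 4 arrays, the granule array included. Dnmt3l was 4.17% of its list, beside 1.33% of all genes on the ES side. Smarce1 and Ccnd2 were 5% and 6.67% of theirs, beside 1.57% of all genes on the neural side. From 1 gene in a list nothing is read about the list.

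**Figure D3:**
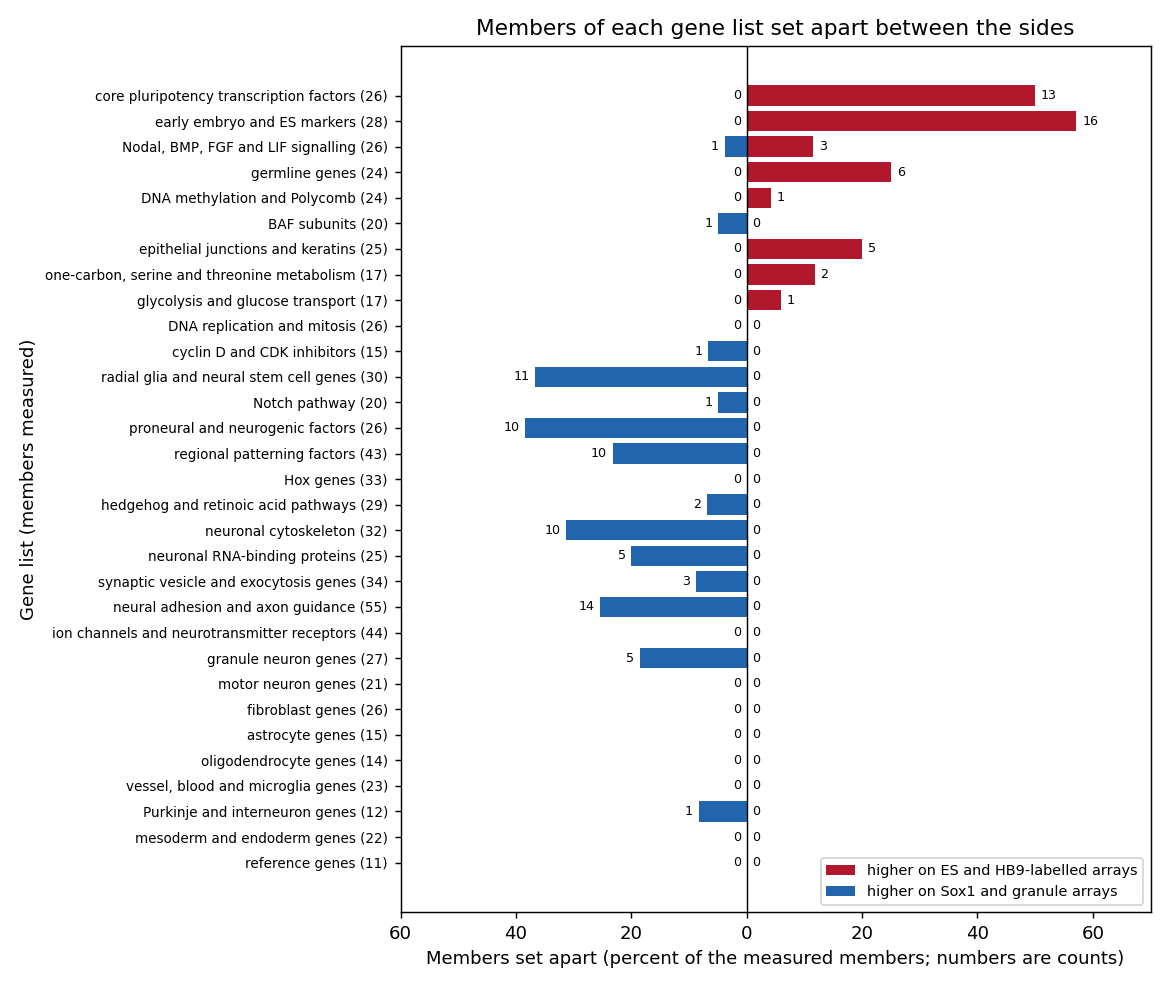
Percent of the measured members of each gene list that were set apart, to the right where the ES and HB9-labelled arrays were higher and to the left where the Sox1 and granule arrays were, with counts beside the bars and the number measured after each name. The pluripotency and early embryo lists reach 50% and 57.1% on the right, the proneural list has 10 of 26 on the left, and the Hox, channel and motor neuron lists have 0 on either side.

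Of 30 radial glia and neural stem cell genes, 11 were set apart on the neural side and 0 on the ES side, with a median of -1.17. Besides Fabp7, Ednrb, Ptn, Tox3 and Gpm6b these included Gpm6a, a neuronal proteolipid, at 37.6 and 25.6 against 1379.8 and 18534 (at least 17.5-fold), and Msi1, the RNA-binding protein Musashi, at 362 and 292 against 2834 and 1678 (4.63-fold). Sox3 and Lhx2, at 140.4 and 269 against 2255 and 129.9 and 33.3 and 61.5 against 1251 and 72.9, were high on the Sox1 array alone. Nes (nestin), at 128 and 101 against 532 and 138, was detected on the Sox1 array only. Vim (vimentin), at 8028 and 12089 against 21685 and 12329.6, was bright on all 4 arrays. Of the 30 genes, 12, 14, 27 and 25 were detected on the ES, HB9-labelled, Sox1 and granule arrays. Ptn and Ednrb each had another detected probe set with a smaller difference of the same direction, 0.65 and 1.11 log2 units, and another detected probe set of Gpm6b had overlapping sides.

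Of 26 proneural and neurogenic factors, 10 were set apart on the neural side and 0 on the ES side, and their median of -1.81 was the most negative of the 31 lists. Sox11, a factor of newborn neurons, was at 141 and 499 against 9556 and 12513, a difference of 4.26 log2 units. Nhlh2 and Ebf3, helix-loop-helix factors of young neurons, were at 25.6 and 2.4 against 1407 and 8171 (at least 17.9-fold) and 50.8 and 28.9 against 801 and 4593 (at least 10.2-fold). Neurod4, a proneural factor, was at 10.1 and 13.3 against 1039 and 661 (at least 8.4-fold), one of the genes brighter on the Sox1 array than on the granule array. Neurog2, a proneural factor, was at 28.3 and 19.7 against 619 and 587 (at least 7.45-fold), with the neural arrays close together. Neurod1 and Atoh1, which act in granule cells and their precursors, were not set apart, at 753 and 347 against 563 and 16889 and 57 and 54.1 against 47 and 623, with the granule array alone high. For every one of the 10 both dim arrays were below the low level, except Sox11 and Tcf12, the latter at 832 and 1439.5 against 12287 and 10256.

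Of 43 regional patterning factors, 10 were set apart on the neural side, with a median of -0.48. Pou3f3, a POU factor of the brain, was at 124 and 103 against 5589.7 and 3604, and Meis1, a homeodomain cofactor, at 120.3 and 100.3 against 4098 and 3009.5. Pax6, the paired box factor of neural progenitors and granule cells, was at 218 and 36.8 against 2997 and 6180.5 (13.8-fold), with the ES array above the detection level. En2, a factor of midbrain and cerebellum, was at 138 and 158 against 1205 and 3003 (7.65-fold) and Nkx2-2, a factor of the ventral neural tube, at 23.3 and 24.4 against 456 and 1046 (at least 5.79-fold). Several others were high on one neural array only. Irx3 and Meis2 were at 166 and 200 against 8509 and 284 and 610.5 and 255 against 10527 and 65.2, high on the Sox1 array, and Nfia and Nfix at 47.3 and 116 against 274 and 14142 and 109 and 386 against 5.3 and 12514, high on the granule array. Otx2, a factor of forebrain and of primed pluripotent cells, was somewhat higher on the ES side, at 1029 and 1035 against 631 and 610.3.

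Of 33 Hox genes measured, 0 were set apart, and 8 were detected on the Sox1 array, 2 each on the ES and HB9-labelled arrays and 0 on granule. Hoxb3 and Hoxb1, genes of the hindbrain, were at 2.9 and 85 against 3626 and 16.3 and 46.6 and 25 against 2111 and 23.5. Of 29 hedgehog and retinoic acid genes, 2 were set apart on the neural side, both receptors of hedgehog signalling. Smo, the signal transducer, was at 414 and 382 against 3527 and 1690.4 (4.08-fold), and Boc, a co-receptor, at 211 and 74.5 against 1439.8 and 847 (4.01-fold), almost at the limit. Ptch1, the hedgehog receptor and target, was at 3797 and 2891 against 12045 and 7626, 1.01 log2 units at its smallest. Crabp1 and Crabp2, the retinoic acid binding proteins, were high on the Sox1 array and not on the granule array, at 1278 and 1927 against 28152 and 189 and 92.2 and 217 against 12979 and 20.6. Of 20 Notch pathway genes, Hey1 was set apart on the neural side, at 162 and 160.2 against 666 and 2141 (4.1-fold), and the ligand Dll1 was not, at 164 and 229.6 against 2109 and 346. The genes set apart were 6.9% of the hedgehog and retinoic acid list and 5% of the Notch list. Over all genes the share on the neural side was 1.57%, and nothing is read from so few genes.

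Of 32 neuronal cytoskeleton genes, 10 were set apart on the neural side and 0 on the ES side, with a median of -1.08. Map2, a dendritic microtubule protein, was at 38.2 and 75.4 against 1068 and 7448 (at least 13.6-fold), and Dcx (doublecortin), a protein of migrating neurons, at 2.2 and 20.4 against 837 and 9634 (at least 10.6-fold). Dclk1, a doublecortin-like kinase, was at 33.9 and 65.4 against 704 and 4934 (at least 8.93-fold), and Nefm, the medium neurofilament, at 56.2 and 41.4 against 1096 and 868 (at least 11-fold). Dpysl2, a collapsin response mediator, was at 1231 and 2562 against 16084 and 18531 (6.28-fold), well above the detection level on all arrays. Except for Nefm these were brighter on the granule array than on the Sox1 array. Tubb3 and Stmn2, markers of neurons, were not set apart, at 344 and 609 against 890.2 and 3657 and 5260.3 and 9013 against 2467 and 9839.9, and both were detected on the ES and HB9-labelled arrays. The other detected probe sets of Map2 differed by 0.41 and 0.65 log2 units, and a detected probe set of Dcx had overlapping sides.

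Of 25 neuronal RNA-binding proteins, 5 were set apart on the neural side, with a median of -0.30. Elavl4 (HuD), which stabilises neuronal transcripts, was at 101 and 53 against 1675 and 4564, and Nova1, a neuronal splicing factor, at 85.2 and 117 against 1130.1 and 2634. Celf2 was at 343 and 319.5 against 5469 and 12407 (16-fold), with a detected probe set whose sides overlapped, Ptbp2 at 815 and 696 against 6061 and 5668 (6.96-fold) and Nova2 at 223 and 235 against 1032 and 3820.2 (4.39-fold). Rbfox3 (NeuN), the marker of mature neurons, was at 279 and 115 against 566 and 11269.7 and Srrm4, which drives neural microexon splicing, at 53.1 and 23 against 203 and 1541, both highest on the granule array. Of 34 synaptic vesicle genes, the 3 on the neural side were Scg3, at 21.9 and 6.9 against 776 and 7135 (at least 9.85-fold), Syt11, at 252 and 114 against 1798 and 6067 (7.13-fold), and Cplx2, at 69.4 and 102 against 495 and 2275. These 3 were 8.82% of the list, beside 1.57% of all genes on the neural side. Snap25 and Slc17a6, genes of vesicle fusion and of glutamate loading, were at 21.6 and 28.8 against 106 and 3079.7 and 5.9 and 18.1 against 85.8 and 1972, not detected on the Sox1 array. Of 44 ion channel and receptor genes 0 were set apart, while 7, 6, 17 and 32 were detected on the ES, HB9-labelled, Sox1 and granule arrays.

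Of 55 neural adhesion and axon guidance genes, 14 were set apart on the neural side and 0 on the ES side, with a median of -1.07. Besides Cdh2 they included Dcc, the netrin receptor, at 8.2 and 2.7 against 1402 and 7475 (at least 17.8-fold), and Plxna2, a semaphorin receptor, at 234 and 96.3 against 2013 and 2284 (8.62-fold). Sema6d, a semaphorin, was at 80.3 and 28.1 against 918 and 4129, Ephb1, an ephrin receptor, at 91.4 and 28.1 against 934 and 1326, and Nrcam, an adhesion molecule of axons, at 97.2 and 49.6 against 939.9 and 3406. Another detected probe set of Dcc had overlapping sides. Epha2, an ephrin receptor of ES cells, ran the other way and fell just under the limit, at 793 and 932 against 212 and 10.7. Robo1, a Slit receptor, was at 1166 and 753 against 3554 and 2448, 1.07 log2 units at its smallest.

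Of 27 granule neuron genes, 5 were set apart on the neural side, namely Zic1, Meis1, Pax6, Nhlh1 at 18.7 and 2.7 against 587 and 3103 (at least 7.46-fold) and Reln at 84.5 and 37.1 against 569.7 and 13183. These were genes that the Sox1 array also carried, and 20 of the 27 were detected on the granule array and 16 on the Sox1 array. Gabra6, a receptor subunit of mature granule cells, was at 1.9 and 34.6 against 14.8 and 79.9.

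Markers of other cell types were not spread evenly over the arrays. Of 26 fibroblast genes, 8 were detected on the ES array, 21 on the HB9-labelled array, 9 on the Sox1 and 16 on the granule array, and their summed signals were 11279, 44651, 8416 and 12306 in that order. Col3a1 and Dcn, genes of the fibroblast matrix, were at 20.6 and 6165 against 43.9 and 2388 and 24 and 3376 against 51.6 and 495, and Mgp, at 70.7 and 6206 against 16.1 and 13.7, was high on the HB9-labelled array only. No fibroblast gene was set apart, and without the HB9-labelled array 2 were, on the neural side. Of 15 astrocyte genes, 15 were detected on the granule array and 7 or 8 on the others, and of 14 oligodendrocyte genes 12 on the granule array and 4 or 5 on the others. Aqp4, the astrocyte water channel, was at 36.6 and 1.6 against 26.8 and 8742 and Pcp2, a Purkinje cell gene, at 10.5 and 6.9 against 19.7 and 1954. Of 12 Purkinje and interneuron genes 11 were detected on the granule array and 1 was set apart, Foxp2, at 12 and 6.7 against 515 and 939 (at least 6.54-fold). Of 23 vessel, blood and microglia genes 9 were detected on the granule array and 0 on the Sox1 array. Over all 18193 genes, 9420, 9330, 9376 and 9518 were detected on the ES, HB9-labelled, Sox1 and granule arrays. The 9 of 23 is thus a smaller share than that of all genes on the granule array. None of the astrocyte, oligodendrocyte, vessel, mesoderm or endoderm genes was set apart. Whether cells of these other types were present in the granule preparation, and what they would have added to its signals, was not tested.

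**Figure D4:**
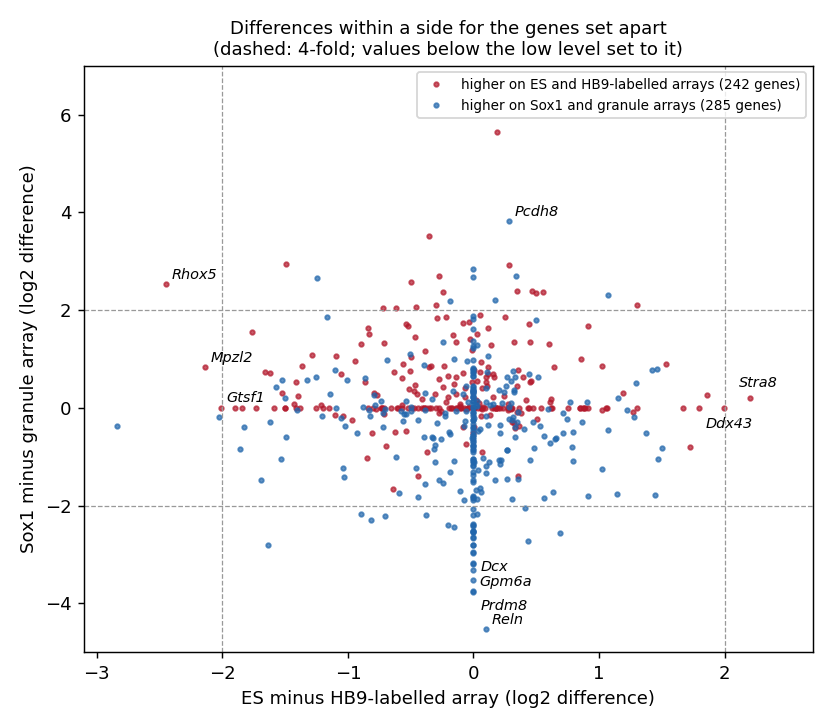
Differences within the sides for the genes set apart, with the ES minus HB9-labelled difference on the horizontal and the Sox1 minus granule difference on the vertical axis, in log2 units with 4-fold dashed and signals below the low level set to it. Genes of the neural side spread further along the vertical axis, down to -4.53 for Reln and up to 3.82 for Pcdh8, than genes of the ES side along the horizontal one, from -2.45 for Rhox5 to 2.20 for Stra8.

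The arrays within a side were not equally close. Among the 242 genes of the ES side, 198 (81.8%) differed by less than 2-fold between the ES and HB9-labelled arrays, beside 75.4% of the 10117 genes detected on either, and the median difference was -0.08 log2 units. Among the 285 genes of the neural side, 175 (61.4%) differed by less than 2-fold between the Sox1 and granule arrays, beside 66.9% of the 10405 genes detected on either, with a median of -0.35. The genes set apart had to be detected on both arrays of their side and the genes beside them on only 1, so these shares rest on unlike filters. At least 4-fold within the side, 1 gene of the ES side was higher on the ES array and 3 on the HB9-labelled array, while 8 genes of the neural side favoured the Sox1 array and 33 the granule array. The Sox1 array was the dimmer bright array for 188 of the 285 genes, so it set the smallest difference more often than the granule array with 97. On the ES side the dimmer bright array was ES for 136 genes and HB9-labelled for 106.

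Genes with wide gaps within a side are named here by their size. Rhox5, Mpzl2, at 1239 and 5458 against 139.6 and 29.8, and Gtsf1, a piRNA factor at 674 and 2718 against 31 and 22.1, were brighter on the HB9-labelled array than on the ES array. Stra8 and the helicase gene Ddx43, at 1283 and 322 against 54.8 and 21.2, were brighter on the ES array. On the neural side Reln, which guides neuron migration, Prdm8, at 7.5 and 44.4 against 372 and 5036, Gpm6a and Dcx were brighter on the granule array, and Pcdh8, a protocadherin at 217 and 179 against 12809.8 and 909, on the Sox1 array.

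The dim arrays also differed. Of the 242 genes, 148 were detected on neither neural array, 86 on Sox1 and 42 on granule, and the Sox1 array was the brighter of the neural arrays for 123 genes against 37 for the granule array, with both at the low level for 82. At least 4-fold apart were 17 genes, and all 17 were higher on the Sox1 array. Of the 285 genes of the neural side, 165 were detected on neither dim array, 97 on the ES array and 102 on the HB9-labelled array. Of the 120 detected on at least 1 of these, 80 differed by less than 2-fold between the ES and HB9-labelled arrays; the other genes are under 2-fold by construction, because of the low level.

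Related genes, listed for a possible difference in use between ES cells and neural cells, are shown pair by pair. Each gene is set against its own level, since signals of different probe sets are not on a common scale. Of 40 pairs listed, 33 had both genes measured. In 3 pairs the genes were set apart on opposite sides, Cdh1 and Cdh2, Pou5f1 and Pou3f3, and Fabp3, a fatty acid binding protein of muscle at 11930.5 and 11418 against 1209.9 and 629.7 (9.44-fold), and Fabp7. In 4 pairs only the gene listed first was set apart and in 5 only the gene listed second. Ptbp1, the splicing repressor that Ptbp2 follows in neurons, was at 4245 and 6543 against 4177 and 2804, with little difference between the sides, and Sox2 overlapped while Sox11 was set apart. Klf7 was at 382 and 229 against 1219.5 and 8321 and Esrrg at 41.7 and 2.1 against 239.5 and 791, both higher on the neural arrays, and their relatives Klf4 and Esrrb on the ES side. In 21 pairs neither gene was set apart, and 0 pairs ran against the listed order. The pairs and their order were written with earlier results of these arrays known, so these counts describe the choice of pairs and support nothing further.

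**Figure D5:**
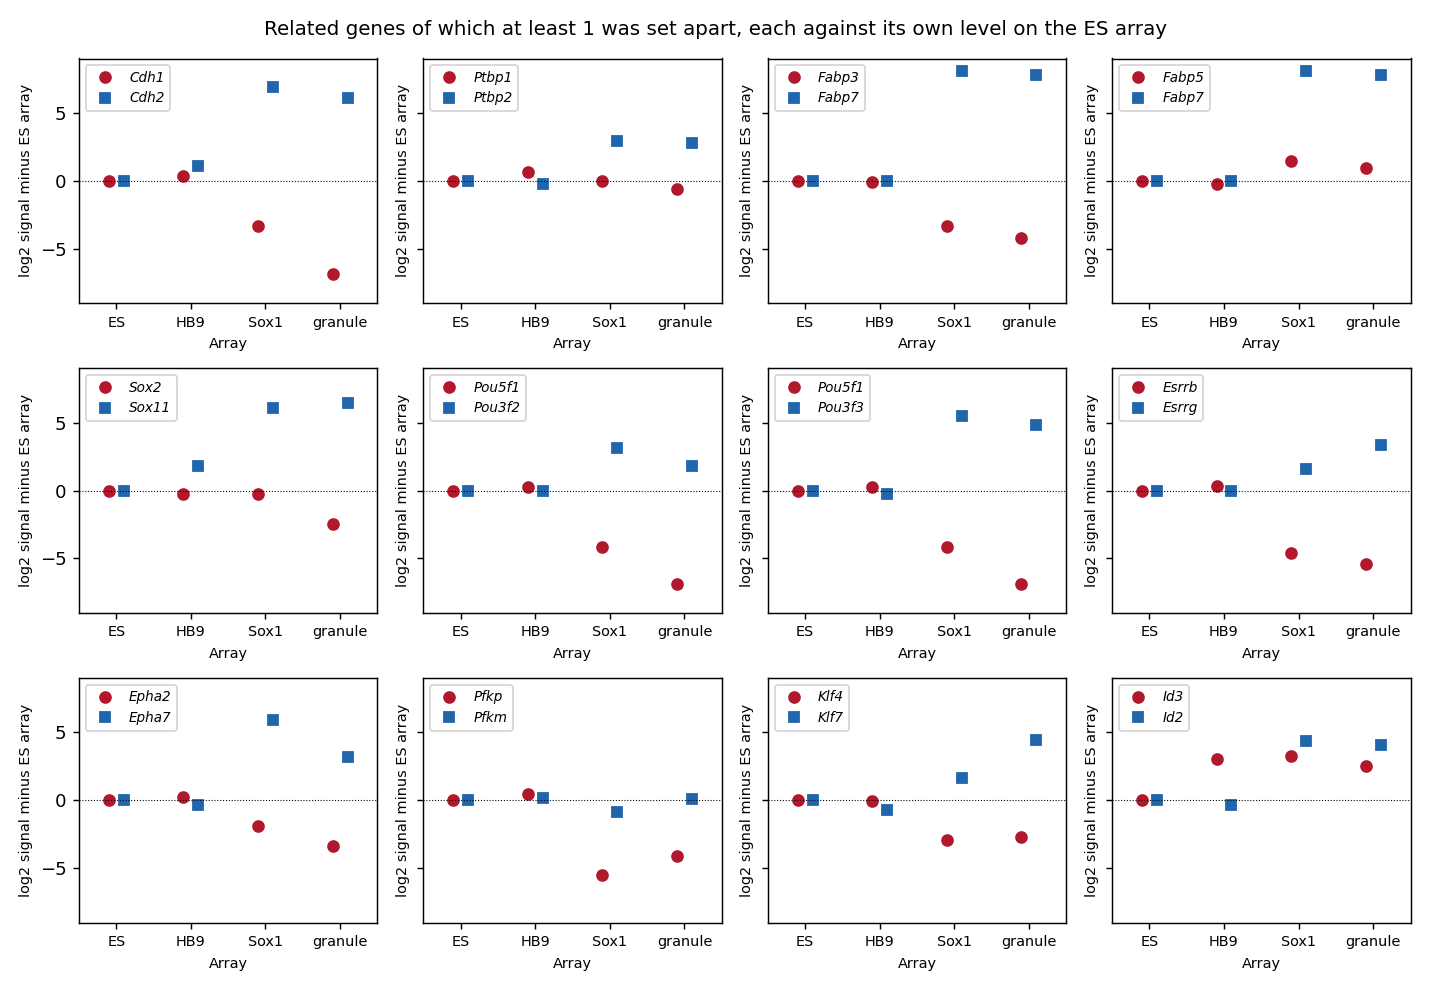
Log2 signal of each gene minus its own log2 signal on the ES array, on the 4 arrays, for the 12 pairs of related genes of which at least 1 was set apart, with signals below the low level set to it. Cdh1 and Cdh2, Fabp3 and Fabp7, and Pou5f1 and Pou3f3 part in opposite directions on the Sox1 and granule arrays. Ptbp1, Fabp5 and Sox2 were not set apart. Sox2 lies low on the granule array, but its sides overlap because of the Sox1 array.

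Other probe sets of the same genes are dimmer readings of the same RNA on the same arrays, since the brightest set stood for the gene. Of the 242 genes, 98 had 171 other sets, of which 108 (63.2%) had all 4 differences of the same sign, 62 had overlapping sides and 1 ran the opposite way. Of the 285 genes, 221 had 485 other sets, of which 280 (57.7%) had the same sign, 204 overlapped and 1 was opposite. Among the 16752 other sets of all genes, 12.5% were higher on the ES side at any size and 14.5% on the neural side. Most of the overlapping sets, 55 and 174, were detected on no array. Of the 108 and 279 sets detected on at least 1 array, a filter that the bright side mostly meets, 101 and 249 had the same sign and 33 and 100 were set apart in their own right. This agreement is partly built in by that filter. No share over the detected other sets of all genes is given, so nothing is read from it. Their median smallest differences were 1.39 and -1.49. A second probe set of Zic1 had a smallest difference of 5.55 log2 units, of Ptn 5.20 and of Fgf4 5.01, while for Klf4 and Cdh2 it was 2.38 and 2.81.

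In the order of genes along the RefSeq annotation, 23 of the 242 genes (9.5%) stood next to another gene of the ES side in 11 runs, and 17 of 284 placed genes of the neural side (5.99%) in 8 runs, counting only measured genes. Runs of 3 were Dppa5a, Ooep and Ddx43 on the ES side and Nrcam, Stxbp6 and Nova1 on the neural side. Dppa4 and Dppa2, Triml1 and Zfp42, and Aire and Dnmt3l were neighbours of the ES side, and Pou3f3 stood beside Pantr1, a noncoding RNA at 10.2 and 23.7 against 4531 and 1480.4. The share of neighbours in a random order was not computed.

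Of the 759 distinct genes measured in the 31 lists, 47 were set apart on the ES side and 70 on the neural side, so 195 and 215 of the genes set apart stood in no list. Outside the lists and chosen after their values were seen, Hspb1, a small heat shock protein, was at 14495 and 17166 against 614 and 118 (23.6-fold) and Icam1, an adhesion molecule of leukocyte contact, at 3999 and 3128 against 7.5 and 206. On the neural side Bcl2, the inhibitor of cell death, was at 60.6 and 13.7 against 695 and 594, Fzd3, a Wnt receptor, at 152 and 132 against 4349 and 5532, and Zeb2, a repressor of E-cadherin, at 45.7 and 49 against 1333 and 1418.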

How the data were processed

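The 4 arrays each measured the RNA of a different kind of mouse cell. The authors deposited linear intensities with 1 decimal for 45101 probe sets; GCRMA is named, without a version, per the submitters' processing notes. The deposited intensities have a mean of 500 on each array after trimming 2% at each end, so the step that made them is uncertain, and such scaling forces the arrays to a common average. Gene symbols came from the platform annotation, in which 34958 probe sets had 1 symbol; 64 control probe sets entered no gene.

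Values were taken to log2, raised to the low level and compared as described in the report (Python 3.11.15, pandas 2.3.3, numpy 2.4.6), after the calculation was tested on simulated data. The simulated differences were well above the limit, in genes above the detection level. That run checked only the working of the calculation and says nothing about genes near the limit or the low level. No test was made, because each group had 1 array and the sides were chosen from these values. The members, lists, pairs and limits were chosen with earlier results of these data known. Named genes were the 12 largest differences per side, up to 5 per list and side, the label checks, the 3 nearest the limit inside and outside, the 5 widest within a side, related pairs with a gene set apart, and runs of neighbours. Other genes are examples chosen after their values were seen. Promoters are the first listed per gene in RefSeq, GRCm38.p6. Alternatives covered the limit, the low level, the scaling, the choice of probe set and leaving out each array.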

Additional observations from a re-analysis of the deposited data

Results flagged for a closer look

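Probe sets that entered no gene also held differences of this size. Of 9160 probe sets with no symbol, 26 (0.284%) were set apart as higher on the ES and HB9-labelled arrays and 26 (0.284%) as higher on the Sox1 and granule arrays. Of 932 probe sets with several symbols, 17 (1.82%) were set apart on the ES side and 7 (0.751%) on the neural side. They drew attention because they lie outside the comparison by gene. The transcripts behind them are not named here.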

How the results depend on the processing

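The counts of 242 and 285 genes moved with the limit, to 871 and 891 at 1 log2 unit and to 97 and 89 at 3. Leaving out an array gave 304 to 588 genes on the ES side and 402 to 1012 on the neural side, with 588 and 1012 without the Sox1 array, 450 and 458 without the ES array, 431 and 402 without the HB9-labelled array and 304 and 475 without the granule array; these counts are larger by construction, since fewer differences must pass. Averaging the probe sets of a gene gave 197 and 134, and requiring the same sign in every probe set 200 and 158. Without the low level they were 348 and 360, and with it raised by 1 log2 unit 174 and 206. Quantile normalization gave 263 and 251, and median centring 273 and 217. Centring on reference genes without Hprt gave 176 and 384 and shifted the granule array by 0.52 log2 units against the deposited scale. The ES side held 45.9% of all calls on the deposited scale, 55.7% under median centring, 31.4% under reference centring and 59.5% under the mean over probe sets. Probe sets without x, s or a in their name gave 203 and 250. Choosing the probe set by the mean linear signal, an alternative chosen after seeing the data, gave 248 and 302.

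In every one of these settings 0 genes changed side, and 88 and 66 genes were set apart in all of them other than the limit of 3. Changing the limit or the low level, leaving out an array and the same-sign rule cannot reverse a gene. The centring shifts were small beside the limit. Hence the count of 0 is largely a property of the settings and is no measure of stability. The mean over probe sets lost 29 of the named genes, Map2, Dcx, Gpm6b, Celf2, Cplx2, Rnf17 and Smarce1 among them. No paired analysis was possible because each group had 1 array. With 1 array per group the number of arrays limits the precision of every value, and signals near the low level have no order.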
